A study of Felis catus with 12 samples.

Results

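The 10 genes described here encode proteins of the intercalated disc, the junction that joins cardiomyocytes end to end. They were chosen by name from knowledge of the disc, with earlier results of these data known. All 10 of the 10 names were found among the 30785 genes listed for left ventricular tissue of 12 cats. Of the 10 genes, 5 belong to the desmosome (DSP, DSG2, DSC2, PKP2 and JUP), 3 to the adherens junction (CDH2, CTNNA1 and CTNNA3), 1 to the gap junction (GJA1) and 1 is a scaffold (TJP1). All 10 had at least 10 reads in at least 3 of 10 libraries, the rule that left 8715 genes for testing.

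Desmosomes anchor the intermediate filament desmin to the cell border, and adherens junctions anchor the actin of the last sarcomere there. Gap junctions pass current and small molecules from cell to cell, and scaffold proteins such as TJP1 hold the channels in place. In heart muscle desmosomes and adherens junctions merge into a mixed structure, the area composita, in which alpha-T-catenin, the product of CTNNA3, binds plakophilin-2, the product of PKP2. Inherited loss of desmosomal proteins is a known cause of arrhythmogenic cardiomyopathy.

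RNA was taken post mortem from the left ventricular free wall of client-owned cats and read directly on Oxford Nanopore flow cells, without conversion to cDNA. Cats 11, 23, 30 and 31 were on flow cell A (PAK20671 in the labels), cats 10, 15, 35 and 36 on B (PAM73681) and cats 22, 29, 37 and 38 on C (PAM73696). Each cat gave 1 library. The cats were pet animals of mixed age and breed, most of which had died with congestive heart failure or arterial thromboembolism. Groups were formed from the labels alone, which do not give the outcome of each cat, and outcomes were not compared. Myocardial fibrosis percentage, age and adipocyte percentage, which are measurements and form no groups, were joined to the libraries by cat number, as in the study's methods. The libraries labelled as cats 22 and 29 are not among the sequenced cats that the study lists, so they entered the comparisons of flow cells and the descriptions, but not the correlations with traits, apart from 1 named alternative.

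The libraries held between 789257 and 2263110 reads on genes, 15753626 in all, and the correlation of log2 values between libraries ranged from 0.76 to 0.92. Transcripts of 9 cardiomyocyte markers, MYL2 and TNNT2 among them, made up 13.4% to 24.8% of the reads of a library. Most of these reads came from MYL2 (57300 to 187076 per library) and CKM (22585 to 165513), beside 2517 to 9925 from TNNT2. The markers of other cells took far less, with 0.0271% to 0.319% for 7 fibroblast genes, 0.0216% to 0.107% for 6 endothelial genes, 0.00842% to 0.105% for 5 smooth muscle and pericyte genes and 0.00369% to 0.0459% for 5 leukocyte genes. The 3 mesothelial markers gave 4 to 23 reads and the 4 adipocyte markers 1 to 14 reads per library, and the mesothelial marker KRT19 had 0 reads. The 3 atrial markers made up at most 0.0547%, in cat 35. In such bulk tissue, fewer cells of a type and less RNA per cell cannot be told apart.

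Values are given below as scaled reads, that is, reads of a gene divided by 1 size factor per library. Levels are compared between cats and not between genes, because transcript lengths for the genome build of the files were not at hand.

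DSP encodes desmoplakin, which ties desmin filaments to the desmosomal plaque. Its scaled reads ranged from 89.8 in cat 11 to 337 in cat 30, with a median of 257 over the 12 libraries. Cats 11 and 31 stood below the other cats, at 89.8 and 132, whereas the next lowest, cat 36, had 201. Both cats were on flow cell A, whose mean was 206 ± 115 (SD, n = 4), against 234 ± 27.3 (SD, n = 4) on flow cell B and 278 ± 26.5 (SD, n = 4) on flow cell C. The highest value was also on flow cell A, so that this flow cell held both ends of the range. Cat 11 had the deepest library, and its low value rested on 186 reads.

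DSG2 and DSC2 encode the desmosomal cadherins desmoglein-2 and desmocollin-2, which span the gap between the cells. DSG2 ranged from 27.6 in cat 35 to 69.0 in cat 11, with a median of 42.4. The other 11 cats lay at or below 54.4, so the cat with the least DSP had the most DSG2. DSC2 was close to the limit of detection, with 94 reads over all libraries and from 0 to 20 reads per library. Its scaled reads had a median of 6.53 and a maximum of 21.5, in cat 37. Cat 15 had 0 reads, which allows up to 3 reads or 4.08 scaled reads, counting error only.

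PKP2 and JUP encode the armadillo proteins plakophilin-2 and plakoglobin, which link the desmosomal cadherins to desmoplakin. PKP2 ranged from 219 in cat 22 to 539 in cat 36, with a median of 375. JUP ranged from 46.2 in cat 10 to 179 in cat 36, with a median of 97.5. Cat 36 thus had the highest value of both genes, although for JUP cat 31 was within 1 scaled read of it, at 178.7.

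CDH2 encodes N-cadherin, the adhesion molecule of the adherens junction. It had the lowest coefficient of variation (CV, SD divided by mean) of the 10 genes with size factors, though not with CPM (22.7%, against 20.8% for CTNNA3), and ranged from 264 in cat 15 to 478 in cat 31, with a median of 337. CTNNA1 and CTNNA3 encode alpha-E-catenin and alpha-T-catenin, which couple the cadherin complex to actin. CTNNA1 ranged from 349 in cat 35 to 745 in cat 23, with a median of 561, and CTNNA3 from 39.1 in cat 11 to 129 in cat 36, with a median of 86.9. For CTNNA3, 10 of the 12 cats lay between 64.6 and 98.1, and cats 11 and 36 stood on either side of them. The reads of CTNNA3 per read of CTNNA1 ranged from 0.0832 in cat 11 to 0.227 in cat 36.

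GJA1 encodes connexin 43, the main gap junction protein of working ventricular muscle. It ranged from 169 in cat 37 to 532 in cat 30, with a median of 325, and the 3 lowest values, 169, 191 and 195, were in cats 37, 23 and 38. TJP1 encodes ZO-1, a scaffold that binds connexin 43 at the rim of the gap junction. It ranged from 56.6 in cat 31 to 116 in cat 37, with a median of 85.3.

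**Figure D1:**
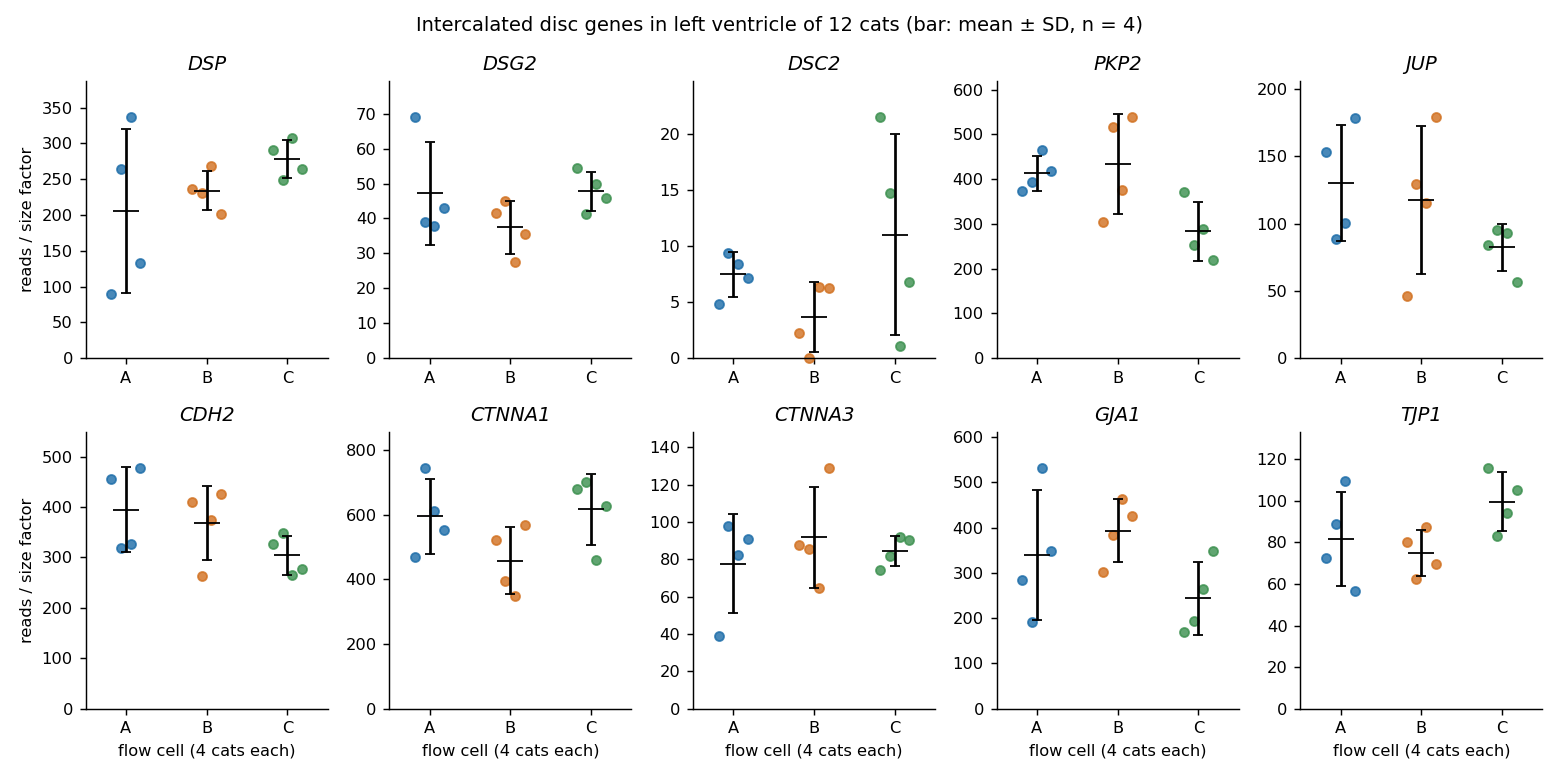
Scaled reads (reads divided by the size factor of the library) of each of the 10 genes in each of 12 cats, by flow cell, on axes that start at 0. Points are cats, and black bars give the mean ± SD (n = 4). On flow cell A, DSP spreads from 89.8 to 337, whereas the 4 cats of flow cell C lie between 249 and 308.

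The CV between the 12 cats was 20.6% for CDH2, 21.8% for TJP1, 22.2% for CTNNA1, 23.5% for DSG2, 24.9% for CTNNA3, 26.4% for PKP2 and 29.4% for DSP. It was 34.9% for GJA1, 39.1% for JUP and 80.3% for DSC2, beside a median of 40.0% over all 8715 tested genes. So 9 of the 10 genes varied less than the median tested gene, many of which had fewer reads. Beside tested genes whose median read count was within 1.5-fold of their own, 6 of the 10 varied less and 4 more. The latter were GJA1 (34.9% against a median of 28.6%), JUP (39.1% against 30.3%), DSC2 (80.3% against 55.2%) and, by little, DSP (29.4% against 28.2%). Of all tested genes, 5.96% had a smaller CV than CDH2. Counting error alone would give DSG2 a CV of 15.2%, DSC2 37.6%, CTNNA3 11.1% and TJP1 11.1%, so that the CV between cats was 1.55 to 2.24 times the counting error for these 4 genes. For GJA1 the CV between cats was 6.32 times the counting error, the highest of these ratios, and for CTNNA1 and PKP2 it was 5.13 and 5.08 times.

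**Figure D2:**
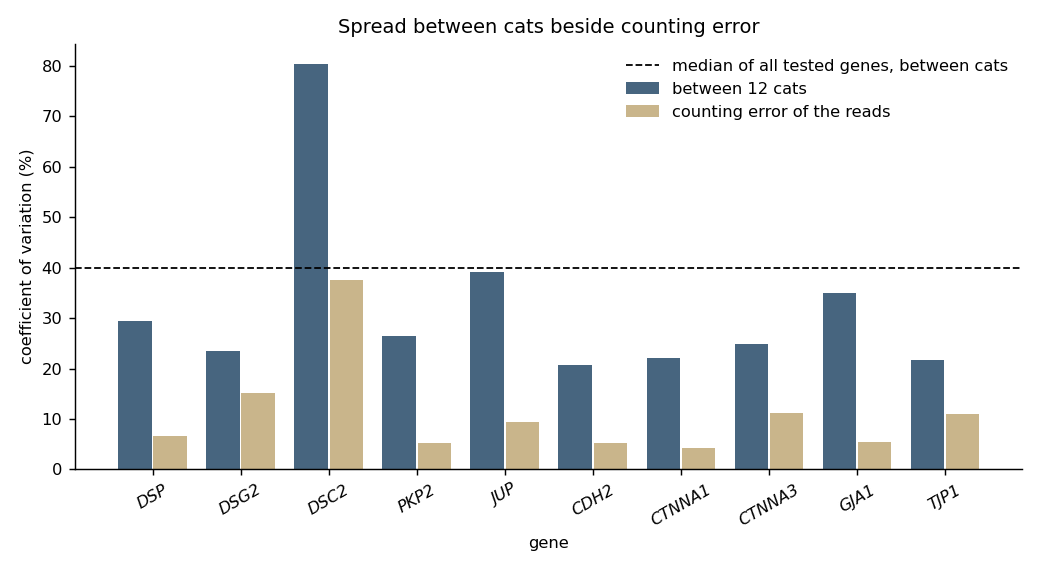
Coefficient of variation (%) of the scaled reads between 12 cats (dark bars) and expected from the counting error of the reads alone (light bars) for the 10 genes. The dashed line is the median between-cat value of all tested genes, 40.0%, and DSC2, at 80.3%, is the gene above it.

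The 10 genes did not rise and fall as 1 group. Pearson's r of log2(value + 1) between 2 of the genes over the 12 libraries had a median of -0.03 over the 45 pairs, with 19 pairs above 0, and the median over all pairs of tested genes was close to 0 as well. These correlations describe 12 libraries that share flow cells and differ in depth. PKP2 and JUP, the armadillo genes, had an r of 0.68 (Spearman's rho 0.71), and 0.63 once the mean of the flow cell was subtracted. DSP and TJP1 had an r of 0.69 (rho 0.89), and 0.71 when centred. DSC2 and CTNNA1 had an r of 0.69 (rho 0.82), with the 0 to 20 reads per library of DSC2, and 0.56 when centred.

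Some pairs ran in opposite directions. DSP and CDH2 had an r of -0.71 (rho -0.59), and the reads of CDH2 per read of DSP ranged from 0.860 in cat 29 to 5.09 in cat 11. JUP and TJP1 had an r of -0.62 (rho -0.66). Of the 45 pairs, 1 lay below -0.7 and 0 above 0.7, whereas 1.23% and 1.40% of all pairs of tested genes did. GJA1 and TJP1, whose proteins bind each other, had an r of -0.23 (rho -0.28), and CTNNA3 and PKP2 had an r of 0.12 (rho 0.22).

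Cat 11 set some of these values. Without it, the r of DSP and CTNNA3 went from 0.50 to -0.35, that of DSP and DSG2 from -0.48 to 0.06 and that of DSG2 and CTNNA3 from -0.49 to 0.10. The pairs DSP with TJP1 (0.86), PKP2 with JUP (0.71) and DSP with CDH2 (-0.68) remained on the same side without this cat.

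**Figure D3:**
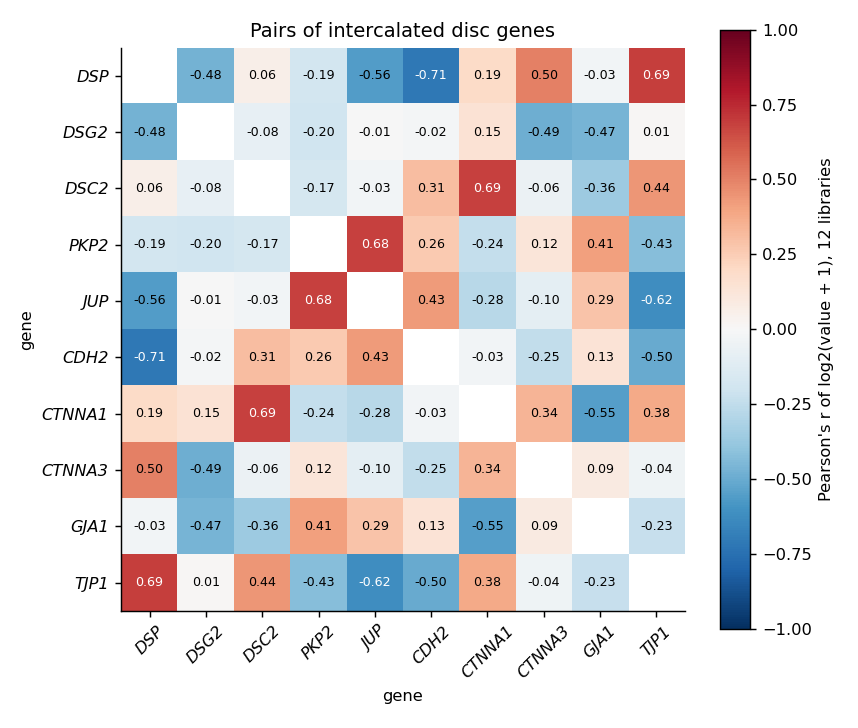
Pearson's r of log2(value + 1) over 12 libraries for the 45 pairs of the 10 genes, with red above 0 and blue below 0. DSP with TJP1, DSC2 with CTNNA1 and PKP2 with JUP reach 0.68 to 0.69, and DSP with CDH2 reaches -0.71.

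Each of the 10 genes was also compared with all 8705 other tested genes, and the 2 genes with the highest r over the 12 libraries were noted. DSP was most like FEM1A (r = 0.97, and 0.96 with flow cells centred), and TJP1 was most like NFIB (0.95 and 0.93). JUP was most like LSM10 (0.91) and REPS1 (0.91), CDH2 like FBXO27 (0.91) and PKP2 like DOK5 (0.87). For CTNNA3 the leading gene was METTL27 (0.87), for CTNNA1 KPNA4 (0.88) and for GJA1 the uncharacterised LOC109491700 (0.84). The leading genes were IFT52 for DSG2 (0.83) and RBM7 for DSC2 (0.87). The 20 genes noted were 20 different genes, and 8 of them were again among the leading 2 when flow cells were centred. Some had few reads over the 12 libraries, such as LSM10 (127), FBXO27 (134) and LOC109491700 (202), and others more, such as DOK5 (1061) and KPNA4 (2944). Each r given here was picked as the highest of 8705, so no test goes with it.

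Relatives of the 10 genes that are known from epithelia or brain had few reads or 0. Among desmosomal relatives, DSG3, DSG4, PKP3 and EVPL had 0 reads in all 12 libraries, PKP1 had 1, DSG1 6, DSC3 11, DSC1 24 and PPL 27. A total of 0 reads allows up to 3 of the 15753626 reads. Among adherens junction genes, CTNNA2, the neuronal alpha-catenin, had 0 reads and CDH1, E-cadherin, had 10. Of other connexins, GJB2, GJB6 and GJD3 had 0 reads and GJC1 had 10, while GJA3 (317 reads), GJA5 (273) and GJA4 (155) were seen in all 12 libraries. In the RefSeq annotation of another cat assembly, DSC2 lies between DSC3 and DSC1 and DSG2 beside DSG3. LRRTM2, which overlaps CTNNA1 there, had 0 reads and LRRTM3, which overlaps CTNNA3, had 1.

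The study ranked genes by Spearman's correlation with traits of the heart muscle, and the same measure was used here for fibrosis, age and adipocyte percentage. Adipocyte percentage is not among the traits that the study names for its rankings. With myocardial fibrosis percentage, known for 8 of the cats, no member of the group passed. In order from the least to the most fibrotic heart, the scaled reads of GJA1 were 464 in cat 35, 532 in cat 30, 195 in cat 38, 425 in cat 36, 302 in cat 10, 284 in cat 11, 383 in cat 15 and 191 in cat 23. The highest and the second highest value were thus in the least fibrotic hearts and the lowest in the most fibrotic one, but cat 38 lay low among the less fibrotic hearts and cat 15 high among the more fibrotic ones. GJA1 had a rho of -0.67 (exact permutation p = 0.0831, p_adj = 1, n = 8) and an r of -0.49 (exact permutation p = 0.223), and r was -0.75 within flow cells (exact permutation within flow cells, p = 0.0972, 7 cats).

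DSG2 had a rho of 0.64 (exact permutation p = 0.0962, p_adj = 1, n = 8) and an r of 0.39 (exact permutation p = 0.353), or 0.39 within flow cells (p = 0.444 by permutation). The study measured DSG2 by RT-qPCR in left ventricle of a larger set of cats. It found no significant relation with the percentage of myocardial fibrosis. DSP had a rho of -0.50 (exact permutation p = 0.216, p_adj = 1, n = 8) and an r of -0.15 (exact permutation p = 0.742), or -0.10 within flow cells (p = 0.854 by permutation). The study, by gene set enrichment, named DSP among genes with lower expression at higher fibrosis. Its list of cats and its test differ from those used here. The rho of DSP depended on single cats, at -0.29 without cat 30 and also without cat 35, and -0.79 without cat 23 (exact permutation p = 0.048, n = 7). Without the most fibrotic hearts, cats 23 and 15, r over 6 cats was -0.55 for GJA1 (exact permutation p = 0.247). It was 0.80 for DSG2 (exact permutation p = 0.0306) and -0.71 for DSP (exact permutation p = 0.0708), all unadjusted. Over the 8 cats, 0 of the 10 genes had an unadjusted p of rho under 0.05 by the exact permutation test. The share over all tested genes was 2.83%. Among the 10 genes, rho was above 0 for 4 and below 0 for 6. By the same test 0 of 8715 genes passed an adjusted p of 0.05 (0.0%), 247 passed unadjusted, and Pearson's r and limma's slope also called 0 genes.

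With age, known for 9 of the cats, CDH2 and DSP ran in opposite directions. In order from the youngest to the oldest cat, the scaled reads of CDH2 were 426 in cat 36, 478 in cat 31, 457 in cat 11, 348 in cat 38, 409 in cat 10, 326 in cat 37, 318 in cat 23, 264 in cat 15 and 326 in cat 30. Each of the 3 youngest cats lay above each of the 6 older ones. CDH2 had a rho of -0.88 (exact permutation p = 0.00308, p_adj = 0.802, n = 9) and an r of -0.80 (exact permutation p = 0.0119). With cats permuted inside their flow cells, r was -0.90 (exact permutation p = 0.0174). The unadjusted p of rho stayed under 0.05 with each of the 9 cats left out. By limma's slope on age, however, CDH2 had an unadjusted p of 0.0574 (limma p_adj = 0.955). Without the cats farthest from the median age, r was -0.80 (cats 30 and 15 left out, exact permutation p = 0.0403) or -0.88 (cats 30 and 36 left out, exact permutation p = 0.0147).

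The scaled reads of DSP, in the same order of age, were 201, 132, 89.8, 249, 237, 290, 265, 230 and 337. The 3 youngest cats lay below the 6 older cats without overlap. DSP had a rho of 0.73 (exact permutation p = 0.0311, p_adj = 0.897, n = 9) and an r of 0.68 (exact permutation p = 0.0402), or 0.82 within flow cells (p = 0.0347 by permutation). Without cats 30 and 15 r was 0.62 (exact permutation p = 0.132) and without cats 30 and 36 it was 0.67 (exact permutation p = 0.0996), so r moved little, but its p was above 0.05 in both sets of 7 cats. The unadjusted p of rho stayed under 0.05 in 5 of the 9 fits that left out 1 cat, and not without cat 11, 30, 31 or 36. JUP and TJP1 came next, with rho values of -0.53 and 0.53 (exact permutation p = 0.148 and p_adj = 0.929 for each, n = 9). Their r values were -0.40 (exact permutation p = 0.287) and 0.54 (exact permutation p = 0.133), or -0.49 and 0.68 within flow cells. The rho of JUP was -0.33 without cat 11, 31 or 36.

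In all 2 of the 10 genes had an unadjusted p under 0.05 with age, where 4.76% of all tested genes did, and neither passed adjustment over the 8715 genes. By the exact permutation test 0 of all tested genes passed an adjusted p of 0.05 (0.0%) and 415 passed unadjusted. Pearson's r and limma's slope called 0 genes. With the libraries labelled 22 and 29 entered at the ages of those cats, rho was -0.41 for CDH2 (permutation p = 0.212) and 0.35 for DSP (permutation p = 0.286), over 11 libraries. Depth and the 8 marker lists were set against the 3 traits in 27 relations, of which 0 passed adjustment over the 27. Reads per library had a rho of -0.70 with age (exact permutation p = 0.0433, p_adj = 0.389, n = 9) and an r of -0.72 (exact permutation p = 0.0308). The share of reads from the 6 endothelial markers had a rho of 0.73 with age (exact permutation p = 0.0311, p_adj = 0.389, n = 9) and an r of 0.66 (exact permutation p = 0.0524), with 0.0216% in the youngest cat and 0.107% in cat 15. Within flow cells these r values were -0.78 and 0.73. Among the endothelial markers, VWF had the most reads, 4813 in all, and EGFL7 came next with 1473. The part of depth and of the endothelial share in the values of CDH2 and DSP was not tested.

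With adipocyte percentage, known for 10 of the cats, CTNNA3 had the strongest rank correlation of the group. The sections of cats 10, 15, 23, 30 and 36 were stained and scanned in a second batch and scored with a model trained for that batch, so batch and trait overlap. In order from the lowest to the highest adipocyte percentage, its scaled reads were 64.6 in cat 35, 39.1 in cat 11, 74.4 in cat 37, 81.6 in cat 38, 82.5 in cat 30, 98.1 in cat 23, 87.9 in cat 10, 85.8 in cat 15, 90.9 in cat 31 and 129 in cat 36. Cats 35, 11 and 37, with the lowest adipocyte percentages, had the 3 lowest values, and cat 36, with the highest percentage, had the highest. CTNNA3 had a rho of 0.90 (permutation p = 7.8e-04, p_adj = 1, n = 10) and an r of 0.72 (permutation p = 0.0267). Within flow cells r was 0.73 (permutation p = 0.0295), and without cats 36 and 31 it was 0.55 (exact permutation p = 0.184, n = 8), so the linear relation no longer passed without them. CTNNA3 ranged from 39.1 to 90.9 in the first staining batch and from 82.5 to 129 in the second. Within staining batches, an alternative chosen after seeing the data, its r was 0.62 (exact permutation p = 0.0785, p_adj = 0.999, n = 10). In the study, fat lay mainly in the epicardium, and its share was larger in the right ventricle. The RNA came from the left ventricular free wall, so the percentage does not measure fat in the sequenced tissue.

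TJP1 had a rho of -0.61 (permutation p = 0.0662, p_adj = 1, n = 10) and an r of -0.61 (permutation p = 0.0637), or -0.54 within flow cells. PKP2 had a rho of 0.59 (permutation p = 0.0794, p_adj = 1, n = 10) and an r of 0.58 (permutation p = 0.0777), or 0.52 within flow cells. Within staining batches r was -0.69 for TJP1 (exact permutation p = 0.0433, p_adj = 0.999) and 0.46 for PKP2 (exact permutation p = 0.192, p_adj = 0.999). Over the 8 cats other than 36 and 31, r was -0.48 for TJP1 and 0.34 for PKP2. Of the 10 genes, 1 had an unadjusted p under 0.05, where 3.09% of all tested genes did. By the permutation test 0 of the 8715 genes passed an adjusted p of 0.05 (0.0%), 269 passed unadjusted, and Pearson's r and limma's slope called 0. With cats 22 and 29 entered, rho was 0.62 for CTNNA3 (permutation p = 0.0374, 12 libraries). The unadjusted p of CTNNA3 stayed under 0.05 with each of the 10 cats left out. The share of reads from the 9 cardiomyocyte markers had a rho of 0.70 with adipocyte percentage (permutation p = 0.0306, p_adj = 0.389 over the 27 relations, n = 10) and an r of 0.79 (permutation p = 0.00773), or 0.93 within flow cells, with 13.4% in cat 35 and 24.8% in cat 36. Most of these marker reads came from MYL2 and CKM. The part of this share in the value of CTNNA3 was not tested. The 4 adipocyte markers, at 1 to 14 reads per library, had a rho of -0.13 with adipocyte percentage (permutation p = 0.731, p_adj = 0.951 over the 27 relations, n = 10) and an r of -0.20 (permutation p = 0.593).

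**Figure D4:**
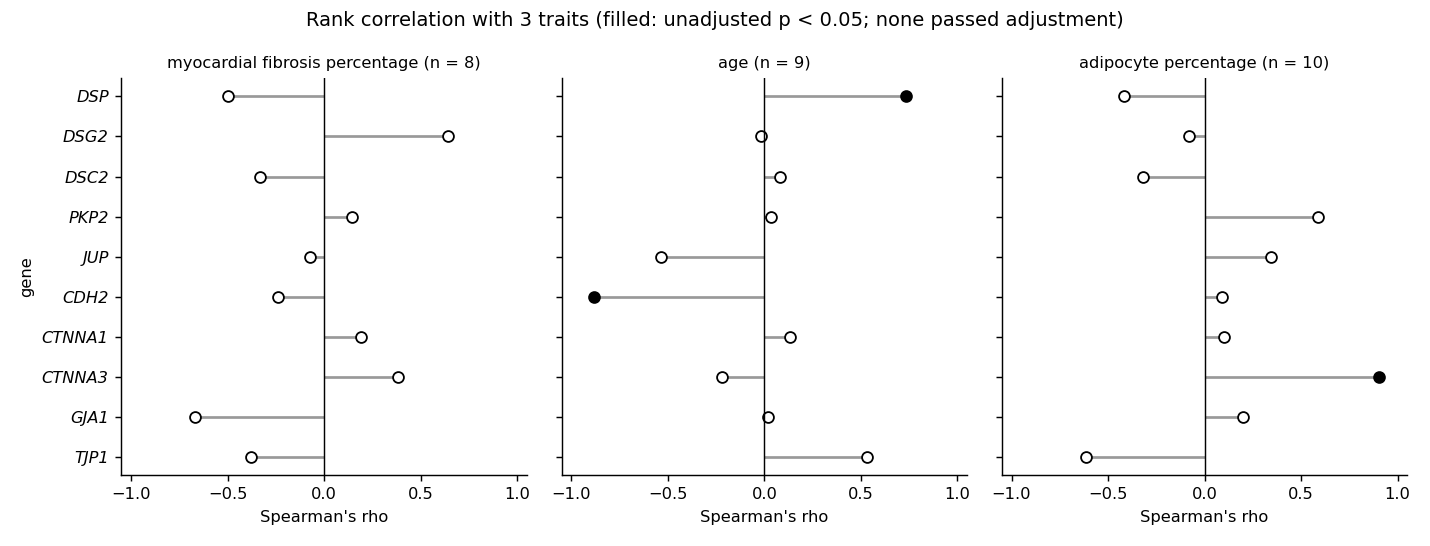
Spearman's rho of the scaled reads of the 10 genes with myocardial fibrosis percentage (8 cats), age (9 cats) and adipocyte percentage (10 cats), on an axis from -1 to 1. Filled points had an unadjusted permutation p under 0.05, which was the case for CDH2 (-0.88) and DSP (0.73) with age and for CTNNA3 (0.90) with adipocyte percentage, and 0 passed adjustment.

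**Figure D5:**
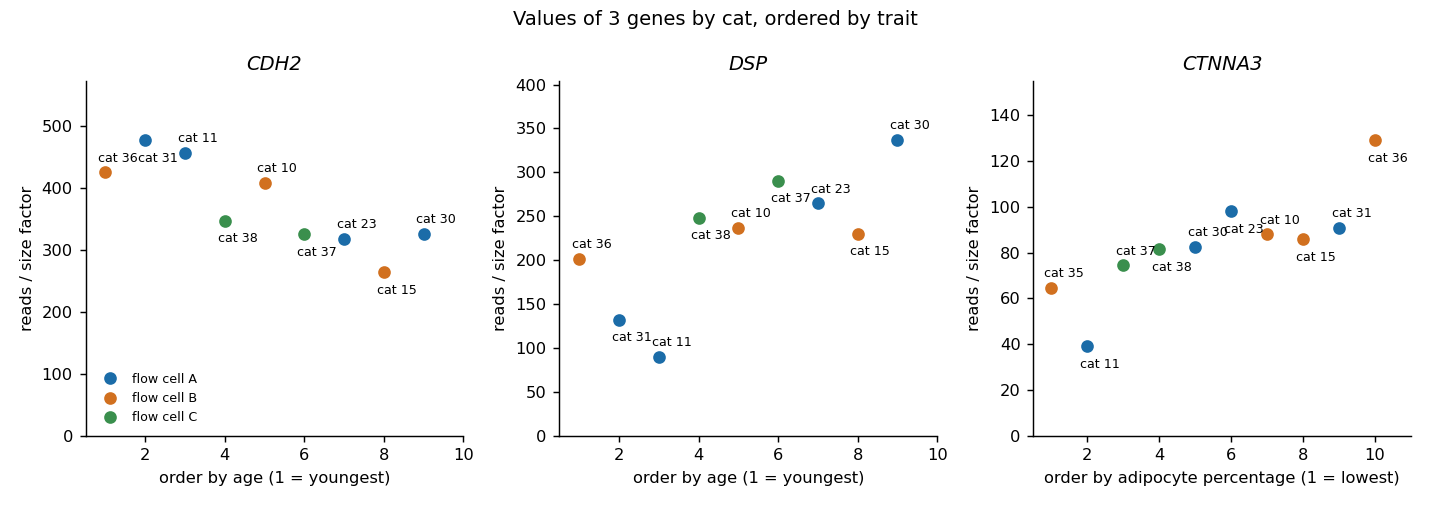
Scaled reads of CDH2 and DSP in 9 cats ordered by age, and of CTNNA3 in 10 cats ordered by adipocyte percentage, coloured by flow cell. The horizontal axis is the order of the cats and not the trait itself. The 3 youngest cats have the 3 highest values of CDH2 and the 3 lowest of DSP.

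The flow cell was the grouping that the labels gave, and since each flow cell held other cats, flow cell and cat cannot be told apart. Log2 differences below are on the log2(value + 1) scale, tested with limma over all 12 libraries. For flow cell A minus the mean of B and C, 0 of the 10 genes passed an adjusted p of 0.05, where 5.45% of all tested genes did. At an unadjusted p under 0.05, 0 of the 10 passed, where 1920 of the 8715 tested genes did. DSP had the smallest p, with a log2 difference of -0.49 ± 0.28 (SE, limma p_adj = 0.319). Of its values on flow cell A, 89.8 and 132 lay below all 8 other libraries, 337 above them and 265 among them. Without cat 11 the difference was -0.16 (limma p_adj = 0.821), without cat 31 -0.34 (p_adj = 0.597) and without cat 30 -0.79 (p_adj = 0.0859). Cats 11 and 31, the low ones, also had the highest shares of smooth muscle and pericyte markers of the 12 libraries, 0.105% and 0.104% of reads. Cats 23 and 30 had 0.0443% and 0.0418%. Most of these reads in cats 11 and 31, 2367 and 1647 over the 5 markers, came from TAGLN and CNN1. The other markers reached at most 228 (ACTA2), 70 (RGS5) and 20 (MYH11) reads in a library. The part of these markers in the value of DSP was not tested.

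The next genes were JUP, at 0.43 ± 0.31 (SE, limma p_adj = 0.435), and PKP2, at 0.26 ± 0.20 (SE, limma p_adj = 0.460). The values of JUP on flow cell A, from 88.7 to 179, overlapped those of the other flow cells, from 46.2 to 179, and so did those of PKP2. The difference of JUP was 0.24 without cat 10 and 0.26 without cat 31 (limma p_adj = 0.617 and 0.734). The median log2 difference was 0.15 over the 10 genes and 0.03 over all tested genes. The counts of all genes depended on single cats, with 475 calls (160 higher and 315 lower on A), but 47 without cat 11, 171 without cat 31 and 287 without cat 15, all by limma.

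For flow cell B minus C, PKP2 and GJA1 passed an unadjusted p of 0.05 and not the adjusted one. The scaled reads of PKP2 were 304, 516, 376 and 539 in cats 10, 15, 35 and 36 on flow cell B and 219, 289, 372 and 253 in cats 22, 29, 37 and 38 on flow cell C. Cat 10 on B lay below cat 37 on C, and the other 3 cats of B lay above all 4 of C. The mean was 434 ± 112 (SD, n = 4) on B and 283 ± 65.8 (SD, n = 4) on C, a log2 difference of 0.60 ± 0.23 (SE, limma p_adj = 0.506).

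The scaled reads of GJA1 were 302, 383, 464 and 425 on flow cell B and 348, 264, 169 and 195 on flow cell C, in the same order of cats. Here the library of cat 22 on C lay above that of cat 10 on B, and the other 3 of B lay above all 4 of C. The means were 393 ± 69.3 (SD, n = 4) and 244 ± 80.3 (SD, n = 4), a log2 difference of 0.73 ± 0.30 (SE, limma p_adj = 0.561). CTNNA1 went the other way, with a mean of 459 ± 103 (SD, n = 4) on B and 617 ± 110 (SD, n = 4) on C and a log2 difference of -0.44 ± 0.23 (SE, limma p_adj = 0.655). Of the 10 genes, 0 passed an adjusted p of 0.05, as did 0.0% of all genes, and 2 passed unadjusted, where 7.87% of all genes did. limma called 0 of the 8715 genes after adjustment and 686 unadjusted, while edgeR called 0 and DESeq2 22. Of the 10 genes, 0 were among these 22, and DESeq2 gave no adjusted p for DSC2.

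A wider list of 65 further junction genes, of which 44 were tested, was set beside the 10. On flow cell A, 2 of the 44 were higher by limma's adjusted p and 0 were lower, which is 4.55%, near the 5.45% of all tested genes. At an unadjusted p under 0.05, 11 were higher and 3 lower, 31.8% of the 44, where 1920 of the 8715 tested genes passed. Their median log2 difference was 0.29, against 0.03 over all tested genes. USP53, a partner of ZO-1 at cell junctions, had a mean of 71.2 ± 27.1 (SD, n = 4) on flow cell A, 24.0 ± 1.36 (SD, n = 4) on B and 32.6 ± 8.98 (SD, n = 4) on C, a log2 difference of 1.26 ± 0.26 (SE, limma p_adj = 0.0119). Its 4 values on A, from 43.8 to 108, did not overlap those of the other cats, from 23.1 to 41.9. VCL, the actin linker vinculin, was higher by 0.98 ± 0.27 (SE, limma p_adj = 0.0442), with values from 351 to 622 on A and from 132 to 363 elsewhere.

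KCNJ2, an inward rectifier potassium channel, had a log2 difference of -1.14 ± 0.33 (SE, limma p_adj = 0.0577) and LIMS1, an integrin adaptor, 0.86 ± 0.27 (SE, limma p_adj = 0.0756), and neither passed. The 5 smooth muscle and pericyte markers took 0.0418% to 0.105% of the reads on flow cell A and 0.00842% to 0.0284% elsewhere, with no overlap. In cats 11 and 31 on A, most of these reads came from TAGLN and CNN1. The fibroblast markers took 0.0924% to 0.319% on A and 0.0271% to 0.158% elsewhere. Their part in the values of USP53 and VCL was not tested.

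Between flow cells B and C, 0 of the 44 genes passed limma's adjusted p, and 3 were higher and 1 lower on B unadjusted, 9.09% beside the 7.87% of all tested genes. The smallest p-values were those of DES, which encodes desmin (log2 difference 1.01 ± 0.25 SE, limma p_adj = 0.282), the atrial and conduction connexin gene GJA5 (1.47 ± 0.39 SE, p_adj = 0.351), the T-cadherin gene CDH13 (1.09 ± 0.41 SE, p_adj = 0.506) and TLN2, talin-2 (-0.74 ± 0.32 SE, p_adj = 0.604).

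With the traits, 0 of the 44 genes passed an adjusted p by permutation, and the shares that passed unadjusted were near or below those of all tested genes, 2.27% beside 2.83% for fibrosis, 4.55% beside 4.76% for age and 0 beside 3.09% for adipocytes. With fibrosis, rho was above 0 for 0 and below 0 for 1 of those with an unadjusted p under 0.05, namely CXADR, the coxsackievirus and adenovirus receptor (rho = -0.76, exact permutation p = 0.0368, p_adj = 1, n = 8). Its r was -0.73 (exact permutation p = 0.0359), and it had only 2 to 23 reads per library. XIRP2 (rho 0.62, r 0.39, p_adj = 1) and PKP4 (rho -0.60, r -0.70, p_adj = 1) were among the next. With age, 2 had an unadjusted p under 0.05. NRAP, which anchors actin of the last sarcomere at the disc, had a rho of -0.87 (exact permutation p = 0.00451, p_adj = 0.802, n = 9) and an r of -0.84 (exact permutation p = 0.00478). POPDC2, a cAMP-binding membrane protein, had a rho of -0.82 (exact permutation p = 0.0108, p_adj = 0.816, n = 9) and an r of -0.74 (exact permutation p = 0.0228). Its values rested on 2 to 48 reads per library. GJA3 (rho 0.67, r 0.55) and CDH13 (rho -0.65, r -0.65) came next, each with p_adj = 0.911. With adipocyte percentage, 0 of the 44 had an unadjusted p under 0.05, and TMEM65 (rho 0.58), TLN1 (rho -0.56), GJA4 (rho -0.52) and PKP4 (rho -0.52) had the smallest p, each with p_adj = 1.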

How the data were processed

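Base calling (Guppy), quality filtering, mapping to felCat9 (Minimap2) and counting per gene (FeatureCounts) had been done by the authors. The values the authors deposited are a signal, reads per gene divided by 1 size factor per library. This was read from the values, since 100.0% of them, multiplied by the factor, came out as whole numbers (within 1e-06), and the reads so recovered gave the depths and the edgeR and DESeq2 alternatives. The other tests used the deposited values.

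The filter kept 8715 of 30785 genes, those that reached 10 reads in 3 or more of the 10 libraries listed by the study. Spearman's rho with a trait was tested by permuting the cats (all 40320 orders for fibrosis, all 362880 for age, 100000 random ones for adipocytes), two-sided. Flow cells were compared with limma (intensity trend, log2(value + 1), 3 flow cell means). Adjusted p-values (p_adj) are Benjamini-Hochberg values over all tested genes.

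The members and lists were chosen with earlier results of these data known. All 10 members are named with their level, with full statistics for the 3 with the smallest unadjusted p in a comparison, the 2 most alike genes of each, and up to 4 genes of the junction list per comparison. For 1 gene of the junction list, values are not reported here. The markers MYH7, FABP4 and MSLN were not analysed here.

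Alternatives were Pearson's r, limma slopes, centring on flow cells, TMM-scaled CPM, all genes with a read, other pseudocounts (0.5 and 4), edgeR, DESeq2, a 2-group fit, CPM for the spread, the libraries labelled 22 and 29 entered, and each cat left out. Centring on the staining batch of the sections was added after seeing the data. Depth was 789257 to 2263110 reads per library, so a gene with few reads has a wide counting error. The tests were checked on simulated data. limma 3.58.1, edgeR 4.0.16 and DESeq2 1.42.0 ran in R 4.3.3. numpy 2.4.6 and pandas 2.3.3 ran in Python 3.11.15, and matplotlib 3.10.9 drew the figures.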

Additional observations from a re-analysis of the deposited data

Results flagged for a closer look

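For the 10 genes, each of the 3 flow cells was searched for a cat far from the other 3, and 1 of 30 such groups had one. DSG2 in cat 11 had 69.0 scaled reads, from 143 reads, against 37.9 to 43.1 in the other 3 cats of flow cell A. The gap was 0.833 of the range of the group, just past the limit of Dixon's test for 4 samples. Chance flags about 1 group in 20.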

How the results depend on the processing

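The 3 named members of each of the 5 comparisons kept their direction in all 249 values under the alternatives. Some of these values could not differ from the main ones. Testing all genes with a read repeats each effect, and so does leaving out a cat of flow cell A for B minus C. The members were also those with the smallest p. Since 0 of these members passed adjustment to begin with, the kept direction says nothing of the stability of a call. Their size did move, with the rho of CDH2 with age at -0.41 and of DSP at 0.35 once the libraries labelled 22 and 29 were entered. Calls over all genes moved more. For flow cell A minus the others, DESeq2 gave 825 calls against 475 by limma, and leaving out 1 cat gave 47 to 530. For B minus C, a pseudocount of 4 gave 2 calls and DESeq2 22, against 0, and leaving out 1 cat gave 0 to 2. Leaving out 1 cat gave 0 calls for fibrosis and for age and 0 to 1 for adipocytes. With CPM in place of size factors, the CV of CTNNA1 was 28.1% and that of TJP1 28.2%, and the other 8 CVs moved by less than their jackknife error. Centring on flow cells left 8 of the 20 most alike genes. The cause of these shifts was not tested. Depth limits DSC2 (94 reads) most.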
